A study of Homo sapiens with 7 samples.

Results

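The TNK2 locus was described across chromatin immunoprecipitation sequencing (ChIP-seq) peak lists for HOXB13 acetylated at lysine 13 (HOXB13-K13ac) in C4-2B cells, a castration-resistant prostate cancer line. Its members were all peaks sharing at least 1 bp with chr3:195540000-195690000 on hg19, a span of 150 kb that holds the TNK2 gene body (195590236 to 195635880, minus strand) and about 50 kb on either side. The 6 lists held 148463 peaks, of which 32 were members. The lists tied to replicates 1, 2 and 3 contributed 10, 8 and 3 of them, and these 21 peaks merged into 10 of the 65675 regions of the genome. In all, those lists held 41303, 45216 and 18232 peaks, with median widths of 555, 635 and 235 bp. Another HOXB13-K13ac list, called over input, held 9 members. It could be tied to none of the HOXB13-K13ac libraries, which number 3 against 4 lists not called against IgG. It is called the unassigned list. The list of replicate 2 called against IgG held 2 of its 7506 peaks, and that of replicate 3 against IgG held 0. That last list has only 1 peak in the whole genome, so its 0 is no trait of the locus.

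The study has 7 libraries: 3 HOXB13-K13ac precipitations, 2 IgG precipitations, made with unspecific immunoglobulin, and 2 inputs of chromatin sequenced without precipitation. All came from C4-2B cells in hormone-depleted, charcoal-stripped serum with no further treatment, so every group shares that medium and no treated cells were set against untreated ones. Replicate 1 belongs to library series 2898, and replicates 2 and 3 to 3047. The control behind the replicate 1 list is not named, while replicates 2 and 3 were called against input. The library part of the list names of replicates 1 and 3 differs only in punctuation, so which library each list belongs to rests on that spelling. No IgG or input library has peaks of its own among these lists, and read depths are unknown.

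TNK2 encodes the non-receptor tyrosine kinase ACK1. The kinase binds the active form of the small GTPase CDC42, is switched on downstream of receptor tyrosine kinases such as EGFR, and is known to phosphorylate AKT and, in prostate cancer cells, the androgen receptor. HOXB13 is a homeodomain transcription factor of the prostate lineage whose family binds AT-rich sequence. By its title, the study concerns super-enhancers of tyrosine kinase genes that depend on the acetylated factor.

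The RefSeq annotation used here lists 7 start sites for TNK2 and 1 for TNK2-AS1, a long noncoding RNA on the opposite strand. Both names matched by symbol. That annotation is on GRCh38.p14, and positions were not moved between it and hg19. Within GRCh38.p14 the TNK2 starts fell into an outermost start and a group of 6 that lay 11.3 to 13.8 kb further inside the gene. The start of TNK2-AS1 lay 0.475 kb inside the outermost TNK2 start. In hg19, peaks were found at the gene start and 11.4 to 14.03 kb inside it. They were also found 2.78 to 4.03 kb inside it, and 0.801 to 3.73 kb and 5.62 to 6.28 kb upstream. The 2 annotations need not share their first start, so no peak was assigned to a given start. Peaks carry no strand either, so a peak near the gene start cannot be assigned to TNK2 rather than to TNK2-AS1.

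The 250 bases before selected starts are shown because peaks covered the 5' part of the gene. Start 1 is the outermost, start 5 had the most CpG dinucleotides, and starts 3 and 7 held the only homeobox core and FOX-type matches. Capitals mark motif matches and sequences run 5' to 3'.
TNK2 start 1 (GRCh38.p14, chr3:195908552-195908801, minus strand): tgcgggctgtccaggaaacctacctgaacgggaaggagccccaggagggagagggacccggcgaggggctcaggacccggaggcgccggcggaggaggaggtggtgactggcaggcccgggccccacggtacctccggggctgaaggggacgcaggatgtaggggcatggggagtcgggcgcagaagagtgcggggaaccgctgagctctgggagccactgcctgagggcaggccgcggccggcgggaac
TNK2-AS1 start 1 (GRCh38.p14, chr3:195907826-195908075, plus strand): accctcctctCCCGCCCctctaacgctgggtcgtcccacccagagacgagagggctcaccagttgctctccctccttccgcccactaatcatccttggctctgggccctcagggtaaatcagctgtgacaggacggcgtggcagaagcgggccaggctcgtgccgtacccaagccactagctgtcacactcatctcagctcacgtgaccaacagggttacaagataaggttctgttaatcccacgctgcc
TNK2 start 3 (GRCh38.p14, chr3:195896776-195897025, minus strand): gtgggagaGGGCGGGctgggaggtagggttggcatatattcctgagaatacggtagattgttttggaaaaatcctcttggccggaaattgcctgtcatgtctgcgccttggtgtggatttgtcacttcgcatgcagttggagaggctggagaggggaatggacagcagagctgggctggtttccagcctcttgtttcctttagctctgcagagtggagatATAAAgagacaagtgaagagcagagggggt
TNK2 start 5 (GRCh38.p14, chr3:195895943-195896192, minus strand): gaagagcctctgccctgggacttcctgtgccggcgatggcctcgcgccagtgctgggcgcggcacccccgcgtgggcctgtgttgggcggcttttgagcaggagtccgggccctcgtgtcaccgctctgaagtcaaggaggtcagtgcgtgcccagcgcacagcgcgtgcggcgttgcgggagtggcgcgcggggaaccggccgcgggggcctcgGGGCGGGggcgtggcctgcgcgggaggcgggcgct
TNK2 start 7 (GRCh38.p14, chr3:195894737-195894986, minus strand): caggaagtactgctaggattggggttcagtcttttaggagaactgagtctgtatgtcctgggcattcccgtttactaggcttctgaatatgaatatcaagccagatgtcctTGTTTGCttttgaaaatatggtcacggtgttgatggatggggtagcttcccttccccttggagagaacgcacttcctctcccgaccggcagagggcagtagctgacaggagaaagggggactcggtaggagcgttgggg

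These promoters were rich in G and C where the outermost start and the inner starts 5 and 6 are concerned. The share of G and C in the 250 bases was 72.4% at start 1, 75.2% at start 5 and 74.8% at start 6, against a median of 58.0% over 34943 promoters (interquartile range 46.4 to 68.0). It was 51.2% to 62.8% at starts 2, 3, 4 and 7. CpG dinucleotides numbered 20 at start 1 and 32 at start 5, with a median of 11 over all promoters.

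Motifs were searched on both strands. Sequences of the HOXB13 type were spelled CCAATAAA, then CCATAAA, then CTCGTAAA and finally CAATAAA, of which the last lies within the first. None of these was present in the 250 bases before any of the 7 TNK2 starts, and over all promoters they were present in 0.864%, 2.30%, 0.117% and 3.67%. The short homeobox core TTTAT, which overlaps most of them, was found at 1 of the 7 starts and in 32.8% of all promoters. The GC box GGGCGGG was found at 3 of the 7 and in 31.5% of all promoters. The FOX-type sequence TGTTTGC was found at 1 of the 7 and in 3.24% of all. The other FOX-type sequence TGTTTAC (2.98% of all promoters), the androgen receptor motif AGAACA (12.4%) and the ETS core CCGGAAG (8.48%) were found at 0 of the 7. The promoter of TNK2-AS1 held a GC box and no other match. Such matches describe the letters of these windows and do not show binding or its absence.

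At the 5' end of TNK2 the peaks formed a compact group. Of the 10 merged regions, 6 held peaks of at least 2 of the 3 replicates, and these replicated sites all lay between 195621846 and 195642160, a stretch of 20.3 kb across the gene start. The replicated share of all merged regions of the genome was 41.2%. Sites S1 to S6 are numbered from upstream of the gene towards its interior. All 6 held peaks of replicates 1 and 2, as did 26760 of the 27046 replicated sites of the genome. S1 and S3 also held a peak of replicate 3. Thus 2 of the 10 regions were found in all 3 libraries, against 6.99% of regions over the genome. When replicate 1 or replicate 2 was left out, a replicated site had to hold replicate 3 and the count was 2 in either case. Without replicate 3 it was 6.

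By midpoint, 4 of the sites lay in the gene body, which is 0.876 per 10 kb. The flank upstream of it held 2, which is 0.370 per 10 kb. S3 spans the gene start, so by shared bases 4 sites touched the gene body and 3 the upstream flank. The flank beyond the gene's end held 0. Without replicate 1 or without replicate 2, a single replicated site touched the gene body, compared with 4 in the full set. Peaks covered 6.17% of the locus in replicate 1 (1.00% of the genome span), 7.30% in replicate 2 (1.29%) and 0.420% in replicate 3 (0.161%), so the covered share was above that of the genome in each library. Of the 21 peaks of the replicates, 12 had their summit within 7 kb of the gene start. The limit of 7 kb was not among the planned settings, and no such share was computed for other gene starts. The count therefore only describes where these peaks lie.

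**Figure D1:**
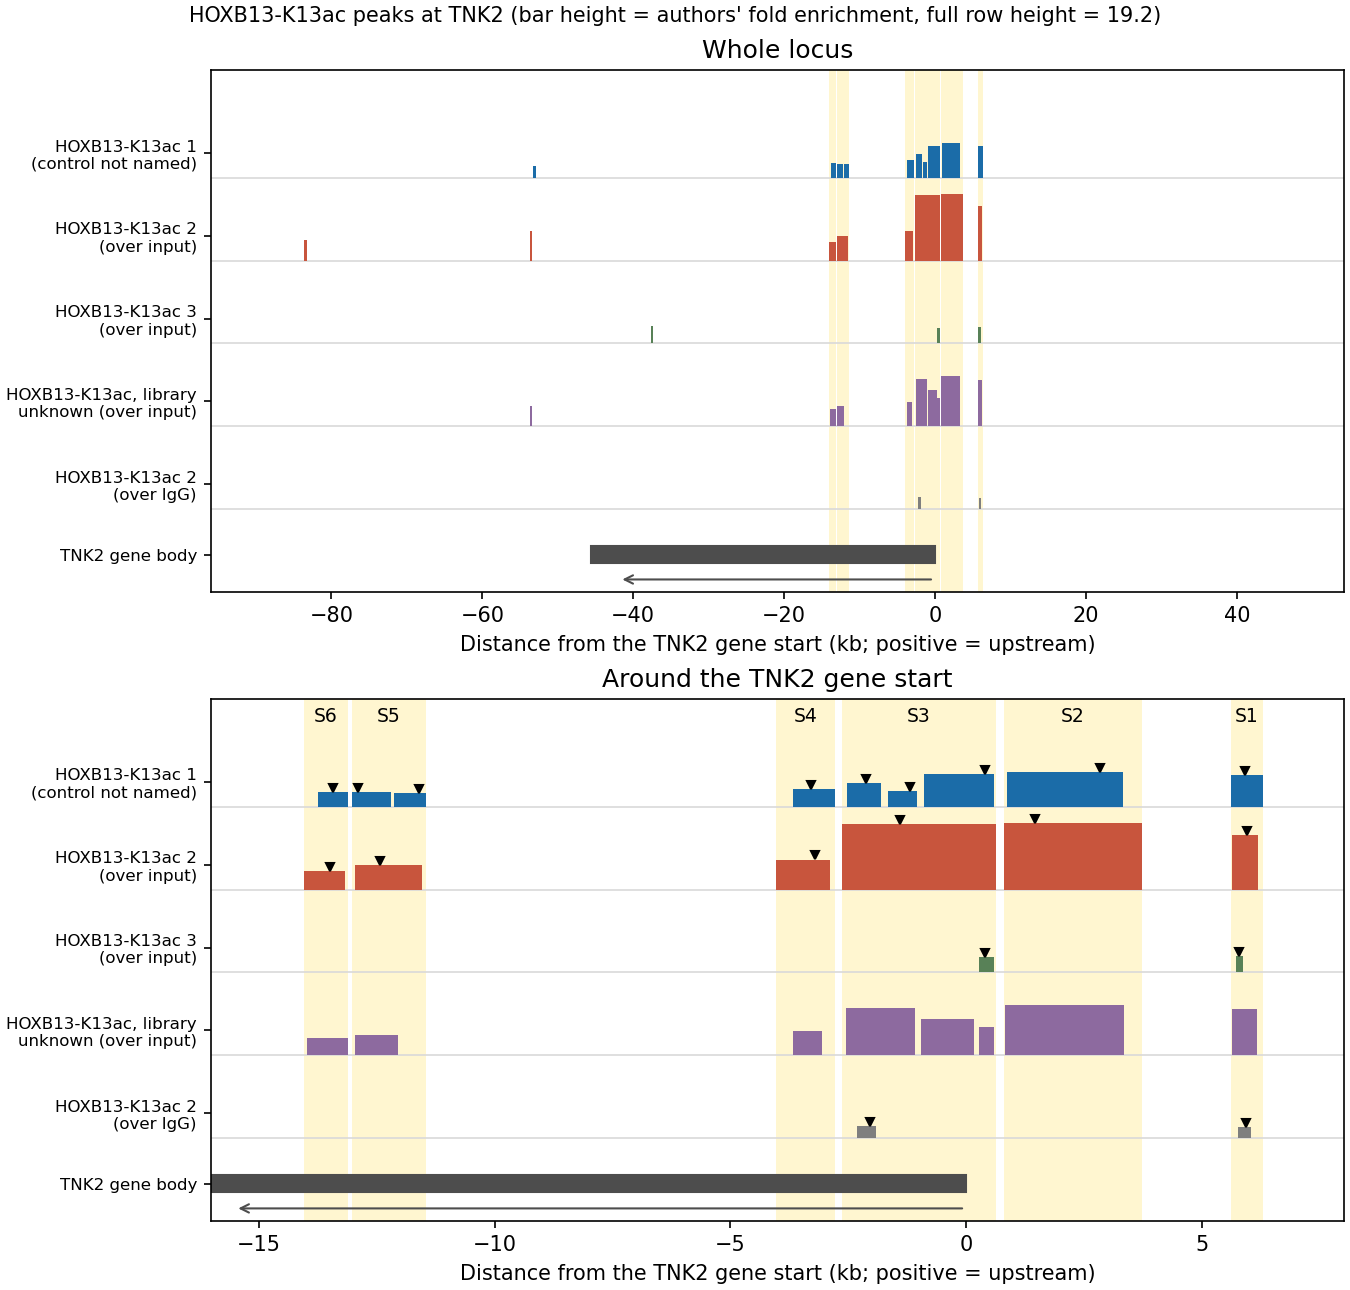
Peaks at TNK2 by list, with distance from the TNK2 gene start in kb on the x axis (positive is upstream) and bar height giving the authors' fold enrichment. The upper panel shows the whole locus and the lower panel the 5' part, where black triangles are summits (not used for the unassigned list), pale bands are the 6 replicated sites and the arrow gives the direction of transcription. Very narrow peaks are widened to stay visible. All replicated sites lie between 14.03 kb inside the gene and 6.28 kb upstream of its start, and outside them no place holds peaks of more than 1 of the replicates 1 to 3, although a peak of the unassigned list lies within a replicate 2 peak beyond the gene's end.

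Upstream of the gene, S1 lay at chr3:195641500-195642160, 5.62 to 6.28 kb before the gene start. It was a narrow site of 661 bp. Fold enrichment here is the authors' ratio of signal at a peak's summit to its local background, and −log10 q is the caller's adjusted significance, higher for stronger calls. The peak of replicate 1 had a fold enrichment of 7.43 (−log10 q 33.5), that of replicate 2 had 12.7 (25.9) and that of replicate 3 had 3.85 (1.57). Summits of replicates 1 and 2 were 31 bp apart here, and that of replicate 3 was 137 bp from that of replicate 1. S1 was called in all 3 libraries, strongly in replicates 1 and 2 and weakly in replicate 3.

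S2 occupied chr3:195636681-195639605, from 0.801 to 3.73 kb upstream of the gene start. It was 2925 bp wide and had the highest fold enrichment of the locus, with 8.08 in replicate 1 and 15.3 in replicate 2. Its −log10 q was 51.3 in replicate 1 and 32.2 in replicate 2. The list of replicate 3 held no peak in it. The summits of replicates 1 and 2 lay 1358 bp apart. Both replicates thus called a broad region here, with its highest point at different places.

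S3 covered the gene start itself, at chr3:195633240-195636516, from 2.64 kb inside the gene to 0.636 kb upstream. At 3277 bp it was the widest site of the locus. Replicate 1 resolved it into 3 peaks with fold enrichments of 5.43, 3.73 and 7.49, listed from inside the gene outwards. Replicate 2 had a single peak over the whole of S3 with a fold enrichment of 15.1, and replicate 3 a peak of 312 bp with 3.56. The highest summit of replicate 1 and that of replicate 3 were 9 bp apart and lay 0.399 and 0.390 kb upstream of the gene start. The summit of replicate 2 was 1800 bp from that of replicate 1, at 1.40 kb inside the gene. The −log10 q at S3 was 33.7 in replicate 1 (highest peak), 32.4 in replicate 2 and 1.41 in replicate 3.

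Weaker sites followed inside the gene. S4, at chr3:195631847-195633096, was separated from S3 by 143 bp and had fold enrichments of 4.20 in replicate 1 and 6.95 in replicate 2, with summits 84 bp apart. After 7413 bp without a peak came S5, at chr3:195622849-195624433. It had fold enrichments of 3.33 in replicate 1 (2 peaks) and 5.69 in replicate 2. S6, at chr3:195621846-195622768, was 80 bp from S5 and had 3.43 in replicate 1 and 4.26 in replicate 2. The −log10 q was lowest at S6 in replicate 2, at 4.05, and the other highest peaks of S4 to S6 in these replicates had 6.50 to 10.2. Replicate 3 had no peak in S4, S5 or S6.

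**Figure D2:**
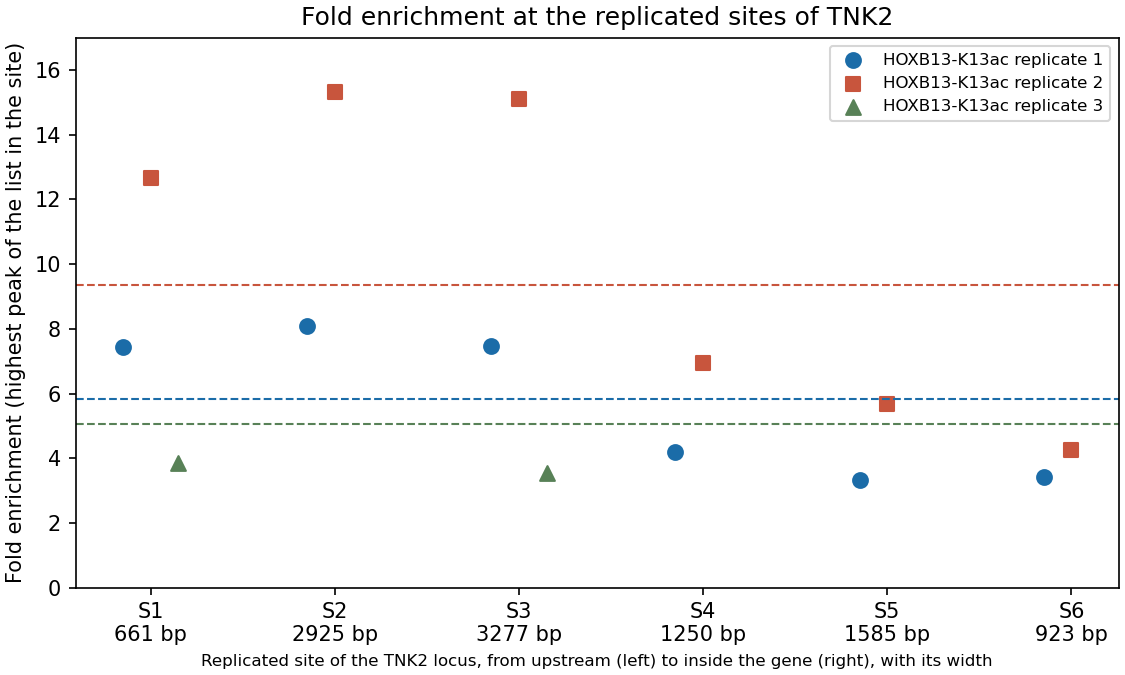
Fold enrichment of the highest peak in each replicated site of the TNK2 locus (y axis, authors' values) for replicates 1, 2 and 3, with sites ordered from upstream to inside the gene and their widths given. Dashed lines are the medians over all replicated sites of the genome, 5.83 for replicate 1, 9.37 for replicate 2 and 5.07 for replicate 3. S1 to S3 lie above the lines of replicates 1 and 2, S4 to S6 lie below them, and both replicate 3 values lie below its line.

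By their highest peaks, S1, S2 and S3 were stronger than S4, S5 and S6 in replicates 1 and 2. The split is one between sites and not by distance from the gene start, since S4 lay nearer to it than S1, and S3 reached into the gene and held a replicate 1 peak there of 3.73, below S4. S1, S2 and S3 had fold enrichments of 7.43 to 8.08 in replicate 1 and of 12.7 to 15.3 in replicate 2. S4, S5 and S6 had 3.33 to 4.20 in replicate 1 and 4.26 to 6.95 in replicate 2. The sites were grouped by these same values, so the gap between the ranges is not a separate result. Both replicates placed S2 first, S3 next, then S1 and S4. They differed only in the order of S5 and S6. Fold enrichment in replicate 2 was 1.24 to 2.02 times that in replicate 1 at the 6 sites, and over 26760 replicated sites with both the median of this ratio was 1.65 (interquartile range 1.25 to 2.16). Such a ratio cannot be read as a difference in binding, because the lists were called separately and the control of replicate 1 is not named.

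Against the rest of the genome, S2 and S3 stood further out in width than in fold enrichment. Of the 27046 replicated sites, whose median width was 1005 bp, 2.28% were at least as wide as S3 and 3.36% at least as wide as S2. Both widths are those of the replicate 2 peak alone. In replicate 1, S2 held a peak of 2463 bp and S3 held separate peaks of 714, 606 and 1476 bp. Of the 910 replicated sites at least as wide as S2, 73 had another such site within 1 kb, and S2 and S3, 164 bp apart, were among them. In fold enrichment, 30.8% of replicated sites were at or above S2 in replicate 1 and 23.4% in replicate 2. For S3 these shares were 35.0% and 24.3%, and for S1 35.3% and 32.7%. S4 to S6 were in the lower part of the range, with 72.9% to 88.2% of sites at or above them in replicate 1 and 69.8% to 95.6% in replicate 2. Among the 4591 sites of all 3 libraries, 77.1% were at or above S1 and 76.7% at or above S3 in replicate 1. In replicate 2 these shares were 70.9% and 59.9%, and in replicate 3 they were 88.2% and 94.1%.

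The peaks of replicate 3 at TNK2 were weak within their own list. Their fold enrichments of 3.56, 3.85 and 4.00 were all below the list's median of 4.40, and their −log10 q values of 1.41, 1.57 and 1.72 were below its median of 2.12. Of these 3 peaks, 0 had a −log10 q of 5 or more, as 6.28% of the whole list did. The same threshold was reached by 9 of the 10 replicate 1 peaks (80.7% of its list) and by 6 of the 8 replicate 2 peaks (67.2% of its list). At this threshold the locus kept 5 replicated sites and had 0 sites of all 3 libraries. That second count was also 0 when summits had to lie within 100 bp and when peaks had to share 0.5 of both widths, so the calls at S1 and S3 in all 3 libraries rest on the 1 bp rule and on weak replicate 3 peaks.

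Against IgG the locus had 2 calls, both weak. Replicate 2 against IgG had a peak in S3, at chr3:195633567-195633958, with a fold enrichment of 2.75 and a q of 0.657. It had another in S1, at chr3:195641637-195641921, with 2.52 and a q of 1. Before adjustment, the caller's −log10 p of this S1 peak was 2.04, equal to the lowest in that list. Over input, the replicate 2 peaks at these places had fold enrichments of 15.1 and 12.7. The summit over IgG was 8 bp from the summit over input at S1 and 635 bp from it at S3. Of the 6 replicated sites 2 met an IgG-controlled peak, compared with 23.2% of replicated sites in the genome. Neither of the 2 peaks had a q of 0.05 or less, while 21.5% of the IgG-controlled list did. Both were also below that list's median fold enrichment of 3.10. S2, which had the highest enrichment over input, was not called against IgG. Levels of the IgG and input libraries themselves at TNK2 are not part of these lists, and their part in these calls was not tested.

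The remaining 4 regions of the locus were each found in a single replicate. Inside the gene, replicate 3 alone had a peak of 173 bp at chr3:195598198-195598370 with a fold enrichment of 4.00. Beyond the gene's end, replicate 1 had a peak at chr3:195582641-195582923 with 2.72 and replicate 2 a peak at chr3:195582135-195582494 with 6.95, only 0.146 kb apart but sharing no base. The fourth was a replicate 2 peak of 424 bp at chr3:195552241-195552664 with 4.88. Apart from the replicate 3 peak, the 31.6 kb of the gene body nearest its end held no peak of any list. The last 47.8 kb of the locus upstream of S1 held none either. A stretch without a called peak may still carry signal below the calling threshold.

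In number of sites the locus was above most of the genome. Windows of 150 kb were laid end to end over chromosomes 1 to 22 and X. Of these 19600 windows, 1159 (5.91%) held at least 6 replicated sites, the median was 0 and the highest count was 34. Windows that cover assembly gaps are among the 10532 with no site. The locus was laid around a gene and these windows were not, and no windows around other genes were counted. Among the 9068 windows with at least 1 site, 12.8% held 6 or more. On chromosome 3 alone the share was 5.86% of 1314 windows. The share changed with the flank chosen and was 2.58% with 25 kb on either side of the gene and 10.1% with 100 kb.

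**Figure D3:**
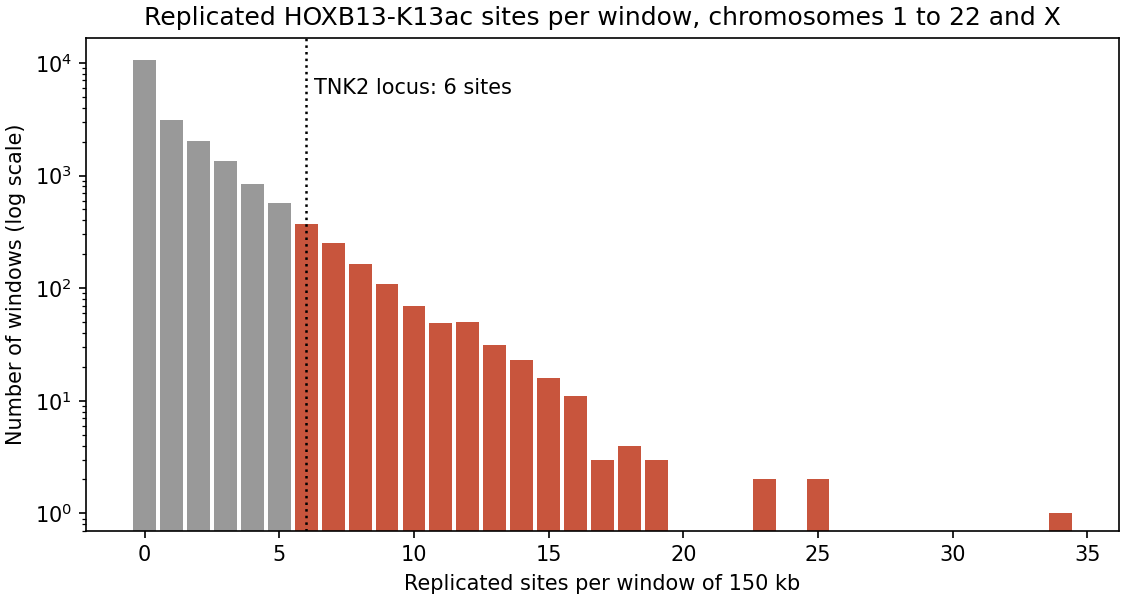
Number of windows of 150 kb (y axis, log scale) by how many replicated sites they hold (x axis) over chromosomes 1 to 22 and X. Coloured bars are windows with at least the 6 sites of the TNK2 locus, marked by the dotted line, and they make up 5.91% of the 19600 windows.

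Near TNK2 other windows held as many sites. Of the 20 windows of the same length on either side, 10 in each direction, 4 held at least 6 replicated sites. Their median was 3 and their range 0 to 8. The windows directly beside the locus held 1 and 2 sites, fewer than the locus itself. Counted by summits, the locus held 10 peaks of replicate 1 (neighbour median 5), 8 of replicate 2 (neighbour median 4) and 3 of replicate 3 (neighbour median 2).

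**Figure D4:**
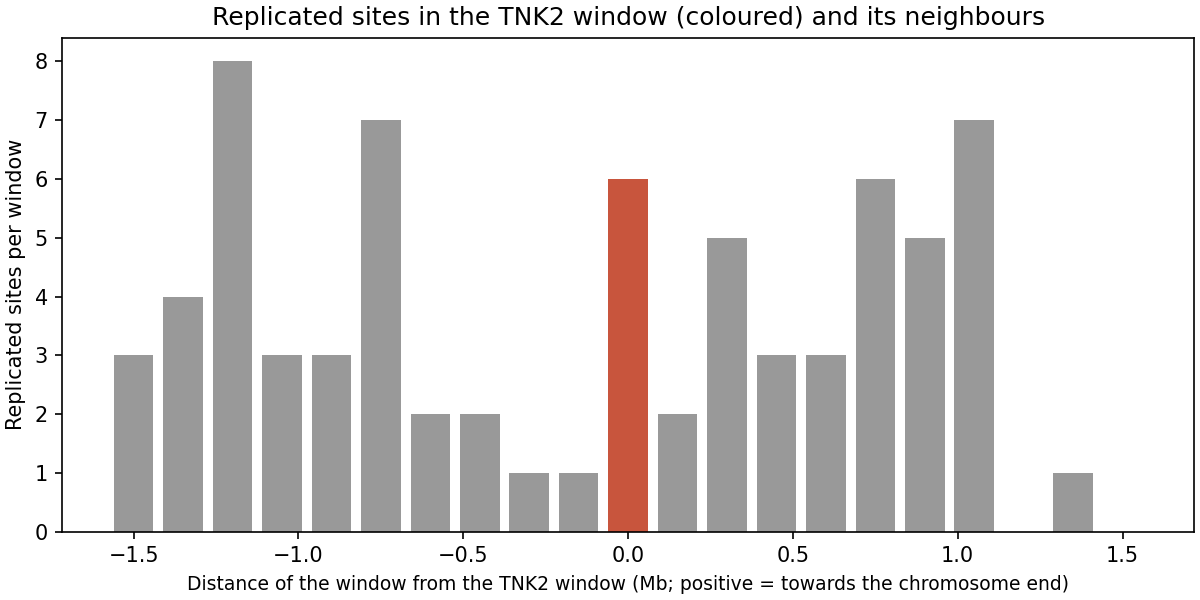
Replicated sites per window of 150 kb (y axis) in the TNK2 window (coloured) and 10 windows on either side, with the distance of each window from the TNK2 window in Mb on the x axis. The TNK2 window holds 6 sites and the windows directly beside it hold 1 and 2.

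Sites no more than 10 kb apart were joined into runs, as a description of spacing and not as a call of a super-enhancer, which needs signal that these lists lack. All 6 replicated sites of TNK2 formed a single run of 20.3 kb, in which sites covered 52.3% of the bases. Of 17037 runs in the genome, single sites included, 239 (1.40%) held at least 6 sites. Beside these 239, which include it, the TNK2 run was shorter than most, with 86 runs of its length or less and a median length of 24214 bp. Its covered share was above their median of 42.0%. It held 2 sites of all 3 libraries, a number reached by 72 of the 239, whose median was 1. Its highest fold enrichment was lower than in most: 191 of the 239 runs reached 8.08 in replicate 1 and 188 reached 15.3 in replicate 2. The median run of the 239 held 7 sites against 6 at TNK2. More sites leave more room for length and for a high maximum, and neither was adjusted for their number. Joining within 5 kb split off S5 and S6 and left a run of 4 sites, and without replicate 1 or without replicate 2 the run had 2.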

How the data were processed

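The members and lists described here were chosen with earlier results of these data known. The submitters' processing notes name MACS2, Bowtie2, BWA and CASAVA 1.4, and the builds hg19 and GRCh37, without roles. For the calling threshold, list filter and pooling, nothing is given in the sources used here. The fold enrichment of each peak is a ratio over local background as deposited by the authors. Likewise the −log10 p-value and −log10 q-value of a peak are deposited values, on the caller's scale. Of the unassigned list only positions and fold enrichment were used.

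Starting from those lists, peaks sharing at least 1 bp were merged with Python 3.11.15, NumPy 2.4.6 and pandas 2.3.3. A replicated site held peaks of at least 2 of the replicates 1 to 3, and its fold enrichment in a list is that of its highest peak. Counts per window used site midpoints. Merging gave the same regions as bedtools 2.31.1 and was tested on simulated data. With 1 list per library and no read counts, no test was made, so all values are descriptions. Named in full were sites of all 3 libraries, the 5 highest replicated sites of replicate 2, the site at the gene start and all peaks over IgG, and the remaining members are also given. No hg19 annotation was used here, so the planned comparison with other genes was not run. Nothing in the labels says whether replicates came from separate cultures.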

Additional observations from a re-analysis of the deposited data

Results flagged for a closer look

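The unassigned HOXB13-K13ac list, which enters none of the replicate counts, had 9 peaks at the TNK2 locus and has no matching list of control chromatin beside it. All 9 met a peak of a replicate, and they met all 6 replicated sites and 1 further region. The whole list holds 36205 peaks. How often they meet replicate peaks over the genome was not computed, so whether these counts are particular to TNK2 is unknown. At S1 the list had a fold enrichment over input of 10.7, at S2 11.6 and at S4 5.63. S3 held 3 of its peaks, with 10.9, 8.41 and 6.58 from inside the gene outwards. At S5 it had 4.76 and at S6 3.88. Its remaining peak, at chr3:195582209-195582437 with 4.60, lay within the replicate 2 peak beyond the gene's end. Where this list comes from was not tested.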

How the results depend on the processing

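Of 69 values recomputed under other settings, 48 stayed within 1.5 times the value reported. At a −log10 q of 5 or more, peaks numbered 0 for replicate 3 and 0 for replicate 2 against IgG, and under this threshold there were 0 sites of all 3 libraries and 0 replicated sites called against IgG. With IgG-controlled peaks of a q of 0.05 or less, that last count was also 0. Joining by summits within 100 bp gave 17 regions, 0 sites of all 3 libraries and 1 replicated site called against IgG. Requiring 0.5 of both widths gave 16 regions, 0 and 1. Both rules join fewer peaks by construction. Leaving out each replicate in turn gave 2 to 6 replicated sites, 1 to 4 in the gene body, 2 to 6 shared by all remaining libraries and a longest run of 2 to 6 sites. With the unassigned list in place of replicate 3, 6 sites held peaks of all 3 lists used. The unassigned list may come from a library already counted, so this does not show sites of 3 separate libraries. The share of windows with as many sites was 2.58% with a flank of 25 kb and 10.1% with 100 kb. The limits on q and summit were not applied to the unassigned list. Without replicate 2 no count against IgG was made, since that list is its own. No paired analysis was possible because IgG and input libraries have no lists of their own. Depth is unknown, so a missing peak, above all in replicate 3, does not show missing enrichment.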
